A study of Homo sapiens with 6 samples.

Results

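The genes described here encode proteins of the lysosome: its membrane proteins, the hydrolases of its lumen, the receptors that sort those hydrolases, and the MiT/TFE transcription factors. They were chosen by name, as a list of 37 symbols, and all 37 were found among the 21533 genes of each deposited table. Of these, 6 are membrane proteins, 12 cathepsins, 8 glycosidases, 5 other luminal proteins, 3 TFE regulators and 3 sorting receptors. RNA was sequenced from LX-2, an immortalised line of human hepatic stellate cells, the liver cells that make scar matrix once activated. Every sample was given palmitic acid, a saturated fatty acid, after transfection, and RNA was taken 24 h later. The groups were 3 samples with a control siRNA and 3 with an siRNA against PERK (gene EIF2AK3), the endoplasmic reticulum kinase that phosphorylates eIF2α. LX-2 is a single line, the labels do not give the siRNA sequences, and all groups share the lipid, so the comparison is one of siRNA within lipid-treated cells.

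The lysosome is the acid compartment in which cells break down proteins, glycans, lipids and worn organelles. Most of its hydrolases are tagged with mannose 6-phosphate in the Golgi and carried to endosomes by receptors that bind that tag. TFEB, TFE3 and MITF bind E-box sequences in promoters of many lysosomal genes, and kinase signalling at the lysosomal surface holds them in the cytosol when nutrients are plentiful. PERK signalling has been linked to that system through calcineurin, a phosphatase that can release TFEB and TFE3. Stellate cells also use lysosomes to degrade lipid droplets and internalised collagen.

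The samples held 17937141 to 19585872 exon reads each. Levels within a gene are given as CPM, the read count of a gene scaled to the size of its library, with TMM factors to align the libraries. Levels between genes are given as the deposited TPM, which is per exon length. A gene is said to have risen or fallen when its adjusted p was under 0.05 by edgeR's quasi-likelihood test, and log2 fold changes are PERK siRNA over control siRNA. EIF2AK3 was counted at 12.9, 13.0 and 13.9 CPM under control siRNA against 4.37, 4.96 and 5.51 CPM under PERK siRNA (log2 fold change -1.42, SE 0.10, adjusted p = 3.0e-13), so the target was lower in every sample labelled PERK siRNA. Of 8 stellate cell or myofibroblast markers 6 were expressed at levels that could be tested, led by VIM, while the resting-cell marker LRAT was too scarce to test and DES had at most 3 reads in any sample. No label says that the samples of a group were separate cultures: the p-values speak to the spread among these 6 samples alone, and that spread may be technical.

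More of the listed members rose than fell, and the list was drawn up with earlier results of these data known. Of the 36 members that passed the filter on low counts, 23 rose, 8 fell and 5 did not pass the test. Over all 12973 genes tested, 69.5% were called, 34.4% as higher and 35% as lower, against 63.9% and 22.2% of the members tested. The members were also more abundant than most genes, with a median of 96.4 CPM against 31.5 CPM. Among the 9636 genes of at least 10 CPM on average, 36.1% rose and 40.0% fell, while of the 33 members at that level 22 rose and 7 fell. The samples of one group lay entirely above those of the other in 31 of the 36 tested members (86.1%) and in 71.8% of all tested genes. The median log2 fold change was 0.20 over the members and 0.00 over all genes tested. Most changes were small: LAMP1, LAMP2 and the cathepsin gene CTSO rose at least 2-fold and CTSS fell at least 2-fold, where 4.07% of all genes rose and 3.84% fell by that much. The size of the change, whatever its sign, had a median of 0.30 in the members and 0.28 in all genes.

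**Figure D1:**
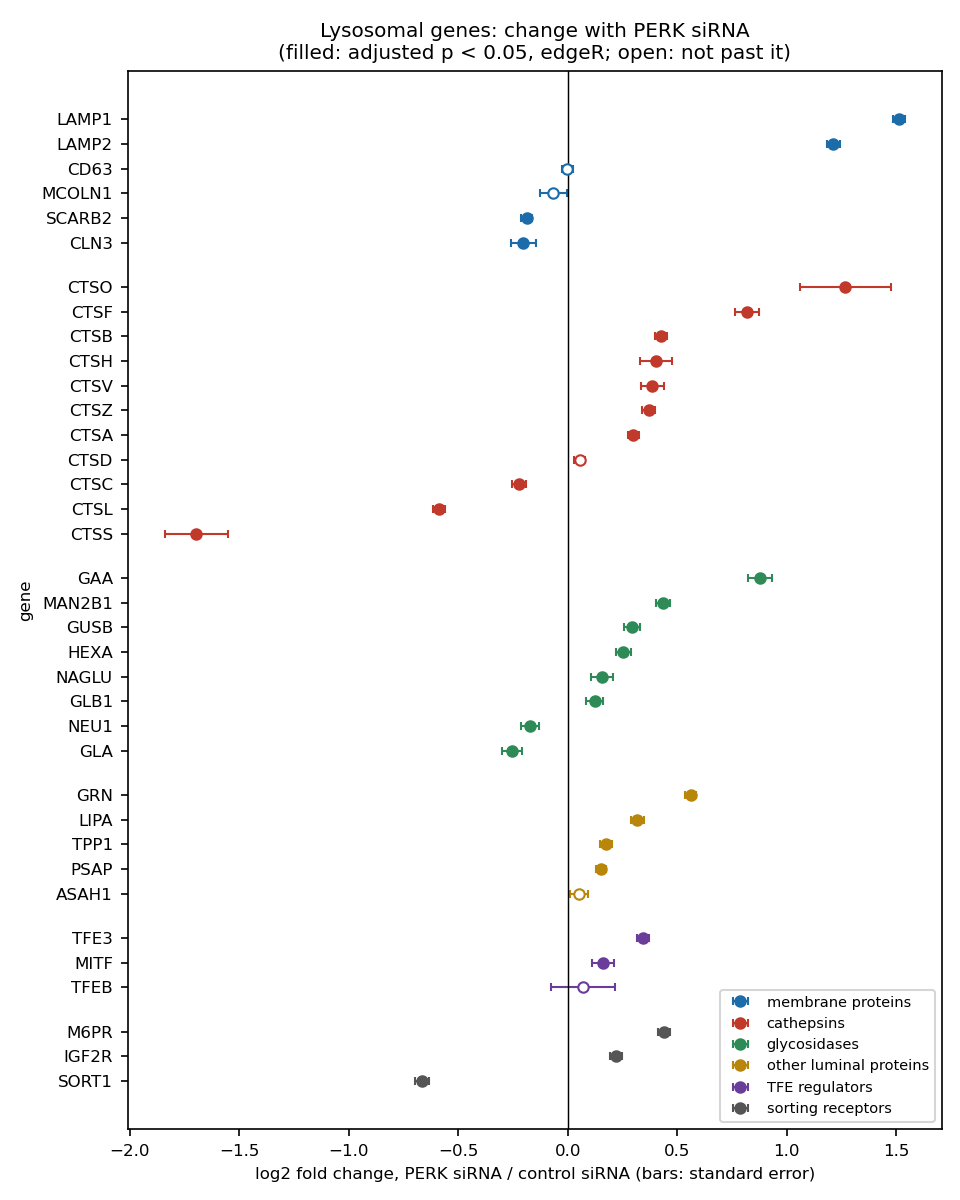
Log2 fold change (PERK siRNA over control siRNA, x axis) of the 36 tested lysosomal genes, grouped by class, with bars for the standard error; filled symbols passed an adjusted p of 0.05. LAMP1 and LAMP2 stand far to the right of the other 4 membrane proteins, and CTSS (-1.70) and SORT1 (-0.67) are the lowest of the tested genes.

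By class, the counts were as follows. The 5 luminal proteins outside the cathepsins and glycosidases gave 4 rises and no fall (median 0.17), and the glycosidases 6 rises and 2 falls (median 0.20). Cathepsins gave 7 rises and 3 falls among 11 tested (median 0.37), TFE regulators 2 rises and no fall among 3 (median 0.16), and sorting receptors 2 rises and 1 fall (median 0.22). The membrane proteins had 2 rises, 2 falls and a median of -0.03. Differences between the classes were not tested. Summed over all 37 genes, the level was 5156, 5226 and 5263 TPM in control samples and 6088, 6110 and 6155 TPM in PERK siRNA samples, a mean 1.17 times higher. The membrane proteins took 1333 ± 12.8 TPM in controls and 1658 ± 27.0 TPM with PERK siRNA (SD, n = 3 each), whereas the cathepsin sums lay close together, at 936.6 ± 24.8 and 968.7 ± 5.91 TPM (SD, n = 3 each). LAMP1 carried most of the difference in the membrane protein sum, with a mean of 161 TPM in controls and 458 TPM with PERK siRNA. LAMP2 added to it, with 38.4 and 88.7 TPM. The mean TPM of each other membrane protein was slightly lower with PERK siRNA, for CD63 and MCOLN1 within the spread of the samples. Fewer cells of a kind and less RNA per cell cannot be told apart in these bulk samples.

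The order of levels was much the same in both groups. PSAP, the precursor of the saposins that help degrade sphingolipids, was the most abundant at 1179 ± 6.93 TPM in controls and 1306 ± 16.96 TPM with PERK siRNA (SD, n = 3 each). CD63 (973 ± 16.0 and 968 ± 25.7 TPM) and GRN (475 ± 4.64 and 697 ± 6.49 TPM) followed, and these 3 genes held 50.4% of the members' TPM in controls and 48.6% with PERK siRNA. In controls LAMP1 ranked 7th, and its range overlapped that of TFE3, as TFE3's did that of CTSA. With PERK siRNA LAMP1 ranked 4th, just above CTSD. The ranges of these genes nearly met, since the lowest LAMP1 sample was at 453.5 TPM and the highest CTSD sample at 453.1 TPM. LAMP2 went from rank 22, overlapping MCOLN1 and NAGLU, to rank 16. CTSL went the other way, from rank 6 to rank 11. At the bottom were CTSO, CTSS, TFEB and the osteoclast collagenase gene CTSK, all under 5 TPM in both groups. CTSK had 4 to 11 reads per sample, passed no filter and was not tested. TPM uses the joint length of all annotated exons, so genes with many long isoforms, such as LAMP2 with 10628 bases, are scaled down.

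**Figure D2:**
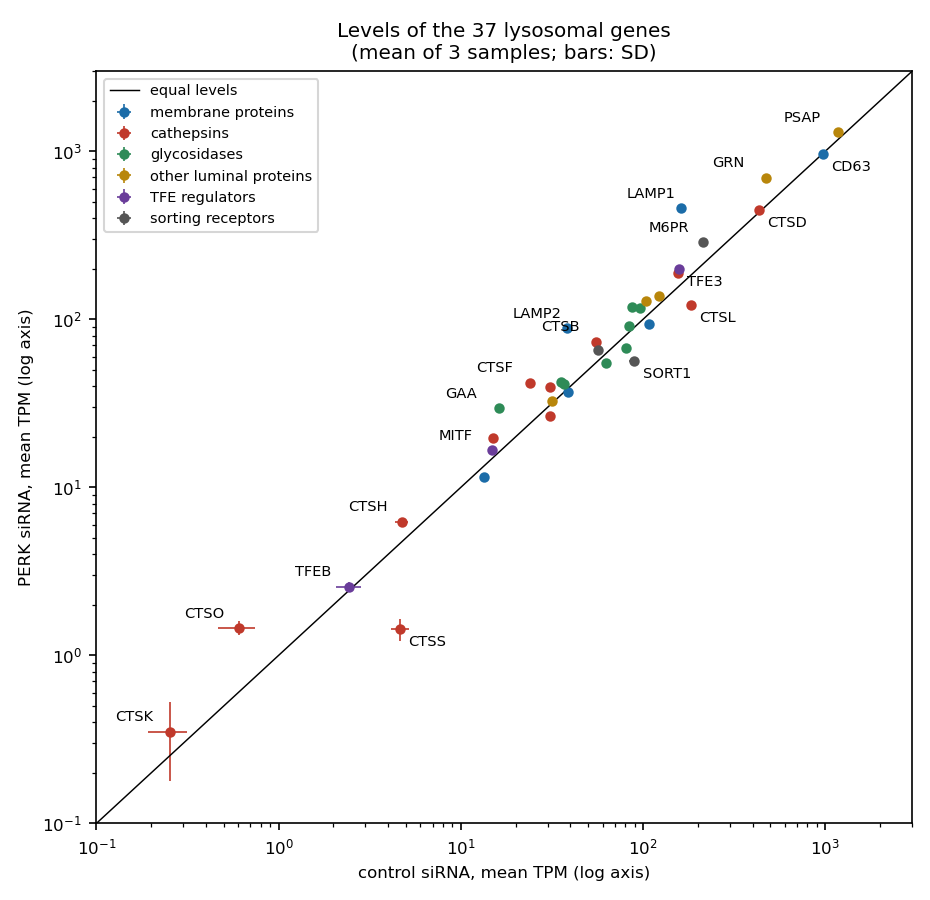
Mean deposited TPM of the 37 lysosomal genes in PERK siRNA samples (y axis) against control samples (x axis), both on log axes, with bars for the SD over 3 samples. Most genes lie near the line of equal levels over a range from CTSK (0.25 TPM in controls) to PSAP (1179 TPM); LAMP1, LAMP2, CTSO, GAA and CTSF lie above it and CTSS, CTSL and SORT1 below.

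Among the membrane proteins, LAMP1 and LAMP2 rose and the rest did not. LAMP1 and LAMP2 encode the densely glycosylated proteins that line the inner face of the lysosomal membrane, and an isoform of LAMP2 is the receptor of chaperone-mediated autophagy. LAMP1 (chromosome 13, 113297241 to 113323672, plus strand, GRCh38) measured 122, 125 and 127 CPM in control samples and 353, 356 and 359.6 CPM in PERK siRNA samples. The groups were far apart and the samples within each were close, with a log2 difference of 1.51 (SE 0.03, adjusted p = 1.3e-27), or 2.85-fold. LAMP2 (chromosome X, 120427827 to 120469365, minus strand) measured 114, 118 and 119 CPM against 264, 272 and 277 CPM, a log2 difference of 1.21 (SE 0.03, adjusted p = 8.1e-25), or 2.32-fold. Every PERK siRNA sample was far above the highest control for both genes. LAMP1 rose more than LAMP2, since the ratio of their TPM was 4.07, 4.21 and 4.32 in controls and 5.10, 5.11 and 5.30 with PERK siRNA. Counts are per gene, so LAMP2 isoforms cannot be told apart.

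The other 4 membrane proteins stayed near their control level. CD63, a tetraspanin of late endosomes and exosomes, measured 614, 631 and 640.3 CPM in controls and 608, 627 and 649 CPM with PERK siRNA. The groups overlapped fully and the log2 fold change was -0.00 (SE 0.03, adjusted p = 0.95). SCARB2, which encodes LIMP-2, the carrier of glucocerebrosidase to lysosomes, fell a little, with 210.1, 211 and 217 CPM against 185.5, 187 and 188 CPM (log2 fold change -0.19, SE 0.03, adjusted p = 3.0e-07). MCOLN1, the lysosomal calcium channel TRPML1, measured 21.7 to 24.1 CPM in controls and 20.8 to 23.1 CPM with PERK siRNA and did not pass the test (-0.07, SE 0.06, adjusted p = 0.36). CLN3, the membrane protein mutated in juvenile Batten disease, measured 26.2 to 28.2 CPM against 23.0 to 23.9 CPM and passed as a fall (-0.20, SE 0.06, adjusted p = 0.0022). Only 1.25% of the reads given to CLN3 had a unique place, and other coding genes cover 30.9% of its exon bases, so its count cannot be assigned to CLN3 alone, and it was too scarce to be tested on uniquely placed reads.

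**Figure D3:**
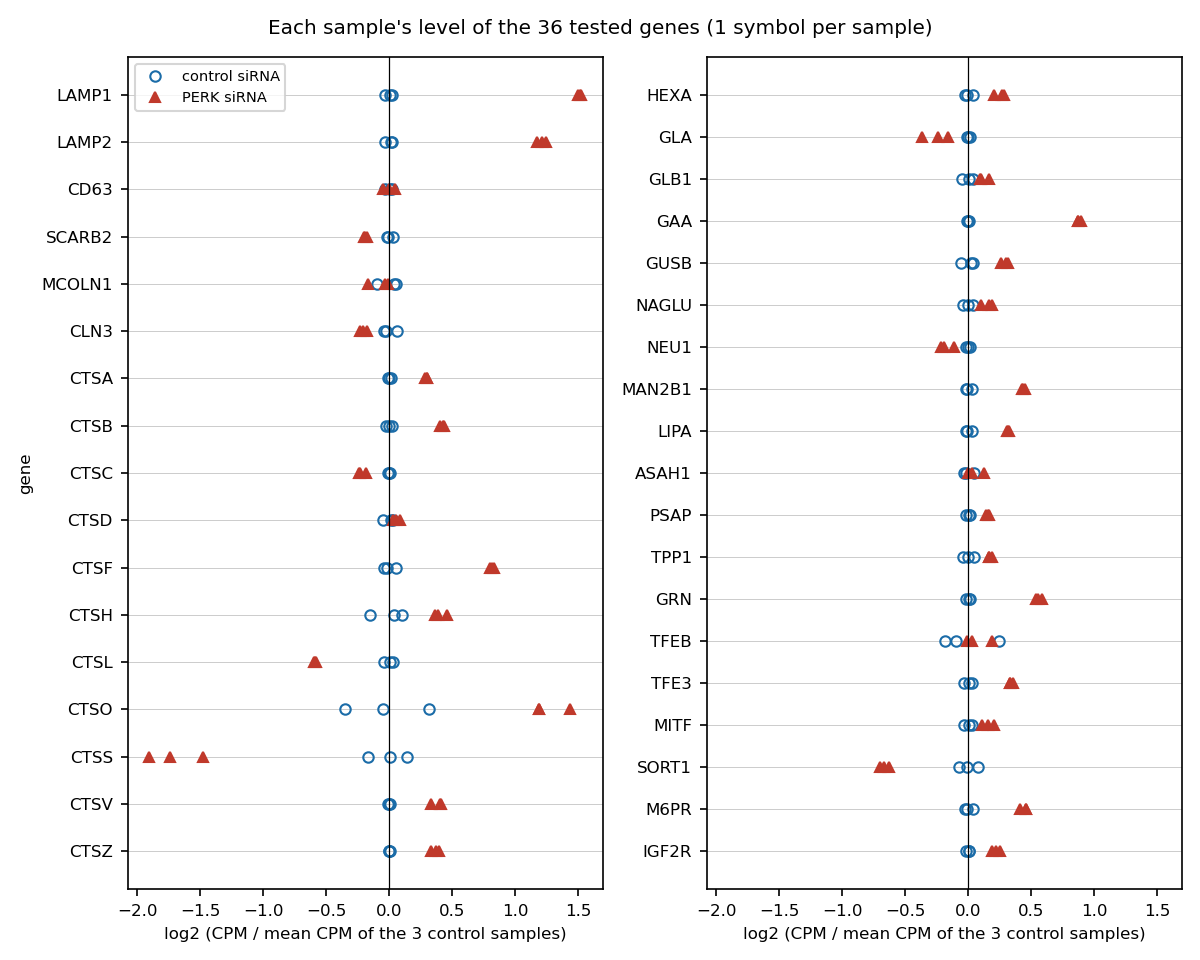
Each sample's CPM of the 36 tested lysosomal genes as a log2 ratio to the mean of the 3 control samples (x axis), 1 symbol per sample: open circles for control siRNA, filled triangles for PERK siRNA. The symbols of the groups are mixed for CD63, MCOLN1, CTSD, ASAH1 and TFEB and apart for the other 31 genes; the scarce CTSO, CTSS and TFEB scatter widely within a group.

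Among members with a promoter window, LAMP1 is also the one with the most E-boxes. RefSeq promoter windows (GRCh38.p14, 250 bases before to 50 after the transcription start) were at hand for 28 of the 37 members and were searched on both strands. A gene with more than 1 annotated start has more than 1 window, and it was counted when any of them held the motif. CD63 and M6PR held their matches in only some of their windows. The motifs were the E-box CACGTG, the palindrome TCACGTGA that TFE factors favour and that contains the E-box, the M-box TCATGTGA of MITF, and TTGCATCA, a composite site of ATF4 with C/EBP factors. An E-box was present in 11 of the 28 members (39.3%), against 12.6% of 10453 tested genes with a window. The 8-base palindrome was present in 6 members (21.4%), LAMP1, CTSA, GAA, IGF2R, MCOLN1 and CLN3, against 2.32% of tested genes and 1.18% of all 27305 genes with a window. The M-box was present in CD63, GRN and TPP1 (10.7% against 1.2% of tested genes), and TTGCATCA in none of the 28 (0.727% of tested genes). The 4 windows that hold at least 2 copies of the palindrome are shown, since they carry the densest matches. Each is 300 bases on the plus strand, written 5′ to 3′, with E-boxes and palindromes in capitals.
LAMP1, chr13:113296989-113297288: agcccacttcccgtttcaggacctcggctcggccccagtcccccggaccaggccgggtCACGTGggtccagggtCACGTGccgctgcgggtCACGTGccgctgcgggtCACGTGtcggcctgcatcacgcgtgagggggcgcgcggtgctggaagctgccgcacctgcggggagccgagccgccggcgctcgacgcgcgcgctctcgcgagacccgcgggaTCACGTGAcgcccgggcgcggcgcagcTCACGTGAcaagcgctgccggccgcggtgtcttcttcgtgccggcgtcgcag
GAA, chr17:80101331-80101630: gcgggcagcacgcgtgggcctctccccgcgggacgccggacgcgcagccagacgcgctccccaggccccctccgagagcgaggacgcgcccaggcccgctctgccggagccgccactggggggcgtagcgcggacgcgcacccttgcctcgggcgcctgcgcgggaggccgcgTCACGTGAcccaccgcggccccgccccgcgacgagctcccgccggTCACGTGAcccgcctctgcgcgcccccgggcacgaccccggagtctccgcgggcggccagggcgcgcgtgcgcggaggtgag
IGF2R, chr6:159968832-159969131: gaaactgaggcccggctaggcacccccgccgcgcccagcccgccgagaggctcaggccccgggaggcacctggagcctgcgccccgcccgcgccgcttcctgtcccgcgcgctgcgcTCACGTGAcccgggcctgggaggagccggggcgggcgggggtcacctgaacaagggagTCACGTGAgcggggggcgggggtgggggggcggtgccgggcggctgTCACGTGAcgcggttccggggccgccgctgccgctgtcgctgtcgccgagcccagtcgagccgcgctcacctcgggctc
MCOLN1, chr19:7522374-7522673: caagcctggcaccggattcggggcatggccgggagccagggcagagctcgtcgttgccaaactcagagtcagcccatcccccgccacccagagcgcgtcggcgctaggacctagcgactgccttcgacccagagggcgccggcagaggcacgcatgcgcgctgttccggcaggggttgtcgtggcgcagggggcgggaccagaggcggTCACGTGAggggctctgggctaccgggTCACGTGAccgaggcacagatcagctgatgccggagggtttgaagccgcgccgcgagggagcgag

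The LAMP1 window holds 6 E-boxes, 2 of them inside palindromes, the IGF2R window 3 palindromes, and the GAA and MCOLN1 windows 2 each. Of the 6 members that hold the palindrome, LAMP1, GAA, CTSA and IGF2R rose, MCOLN1 did not pass the test and CLN3 fell. The only fall was thus that of CLN3, whose count cannot be assigned to it alone, with 1.25% of its reads placed uniquely. Of the 22 members whose windows lack the palindrome, 13 rose, 6 fell and 3 did not pass. Over all tested genes with a window, 38.0% of the 242 that hold the palindrome rose and 33.5% fell, against 34.7% and 35.5% of the 10211 that lack it, and their median log2 fold changes were 0.03 and 0.00. A match is a run of letters in this window and no measure of binding.

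**Figure D4:**
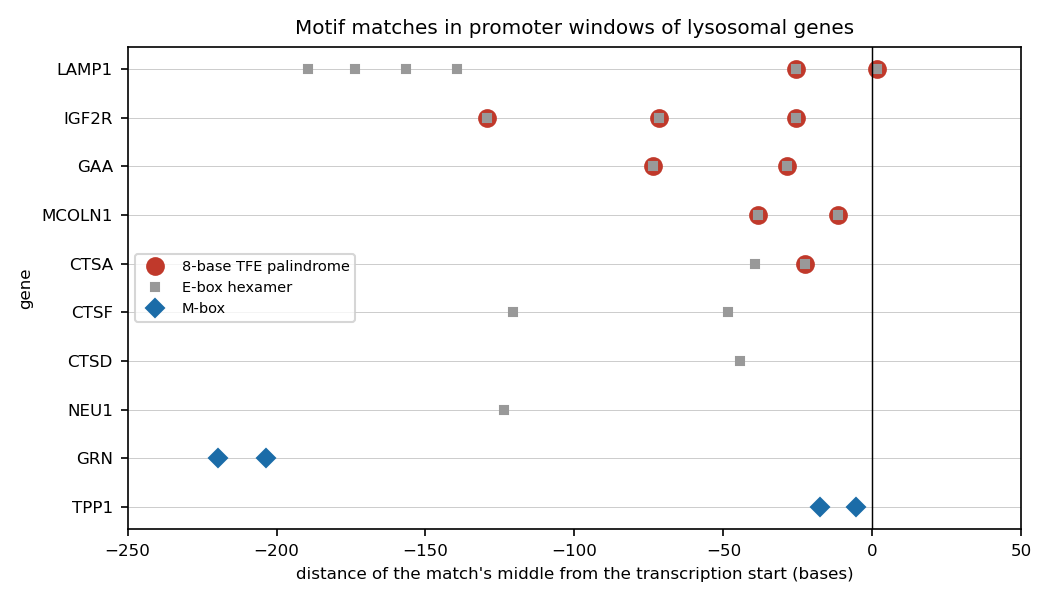
Places of motif matches in the promoter windows of 10 lysosomal genes with a single annotated start (x axis: bases from the transcription start, the vertical line; red circles: 8-base palindrome; grey squares: E-box; blue diamonds: M-box). LAMP1 has a row of 4 upstream E-boxes and 2 palindromes near the start, and IGF2R has 3 palindromes.

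Cathepsins moved in both directions, and the most abundant cysteine cathepsin in control samples was among those that fell. CTSL, a broad endopeptidase, measured 261, 271 and 275 CPM in control samples and 178, 179 and 180.1 CPM in PERK siRNA samples. No sample of one group came near the other, and the log2 fold change was -0.59 (SE 0.03, adjusted p = 7.6e-18), which leaves 66.5% of the control level. CTSB, the endopeptidase often measured beside it, went up from 122, 125 and 126 CPM to 164, 168 and 168 CPM (0.42, SE 0.03, adjusted p = 6.1e-14). The ratio of CTSB to CTSL on the TPM scale was therefore 0.293 to 0.303 in controls and 0.592 to 0.612 with PERK siRNA. CTSV, the closest relative of CTSL and best known from thymus and testis, rose (24.3 to 24.55 CPM against 30.8 to 32.6 CPM; 0.39, SE 0.05, adjusted p = 2.0e-07). All reads of CTSL, CTSB and CTSV were placed uniquely.

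The largest fold changes of the class were those of scarce cathepsins. CTSS, the cathepsin of antigen-presenting cells that trims the MHC class II invariant chain, had 6.66, 7.50 and 8.26 CPM in controls and 2.00, 2.24 and 2.69 CPM with PERK siRNA. The highest PERK siRNA sample was well under the lowest control, and the log2 fold change was -1.70 (SE 0.14, adjusted p = 1.5e-11), on 39 to 154 reads per sample. The summed level of 10 macrophage or Kupffer cell markers was 24.9 to 27.2 TPM in controls and 15.5 to 16.2 TPM with PERK siRNA, nearly all of it CD14 and CSF1R. The defining macrophage markers CD163, C1QA, C1QB, MARCO and TYROBP had no read in any sample. Other marker sums differed too. The endothelial sum was 5.61 to 5.88 TPM in controls and 1.65 to 1.98 TPM with PERK siRNA. The cholangiocyte sum was 131 to 138 against 85.6 to 94.8 TPM. The stellate cell or myofibroblast sum was 4580 to 4712 against 5083 to 5102 TPM. The hepatocyte ranges overlapped. Whether any of these sums goes with the CTSS fall was not tested. CTSO, a papain-like cathepsin with few known substrates, went from 1.07, 1.32 and 1.71 CPM to 3.12, 3.12 and 3.70 CPM (1.27, SE 0.21, adjusted p = 3.4e-06), on 20 to 66 reads. CTSF, another papain-like enzyme, rose from 19.9, 20.2 and 21.2 CPM to 35.66, 36.04 and 36.31 CPM (0.82, SE 0.05, adjusted p = 4.4e-14), the largest rise among cathepsins above 10 CPM.

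The remaining cathepsins changed by less than 1.4-fold. The aminopeptidase CTSH (0.40, adjusted p = 1.5e-05), the carboxypeptidase CTSZ (0.37, adjusted p = 1.8e-12) and CTSA (0.30, adjusted p = 6.5e-12) rose. CTSA is a serine carboxypeptidase that also holds the galactosidase GLB1 and the sialidase NEU1 in a complex. CTSC, the dipeptidyl peptidase that activates granule proteases of immune cells, fell from 105 to 106 CPM in controls to 89.5 to 92.8 CPM (-0.22, SE 0.03, adjusted p = 5.0e-07). CTSD, the main aspartic protease of the lysosome and the most abundant cathepsin, measured 319, 332.5 and 337 CPM in controls and 336, 341.5 and 349.6 CPM with PERK siRNA. The groups overlapped and the difference did not pass (0.05, SE 0.03, adjusted p = 0.063), although it did in 4 of the alternatives, with adjusted p of 0.017 to 0.046. The share of CTSD reads with a unique place was only 35.7%. Another annotated coding gene covers 41.7% of the CTSD exon sequence. Whether this overlap lowered the unique share was not tested. For CTSA the overlap was 21.1% and the unique share 93.5%.

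Most glycosidases rose slightly, and GAA rose most. GAA, the acid α-glucosidase that degrades glycogen and is deficient in Pompe disease, measured 17.85, 17.91 and 18.01 CPM in controls and 32.8, 32.8 and 33.3 CPM with PERK siRNA. Samples within each group were nearly identical, and the log2 fold change was 0.88 (SE 0.06, adjusted p = 1.8e-14). MAN2B1, the α-mannosidase of N-glycan breakdown, rose from 79.3 to 81.9 CPM to 108 to 109.7 CPM (0.44, adjusted p = 6.5e-13). GUSB, the β-glucuronidase (0.29), HEXA, the α subunit of β-hexosaminidase (0.25), NAGLU, of heparan sulfate breakdown (0.15), and GLB1, the β-galactosidase used to stain senescent cells (0.12), also rose, with adjusted p from 4.5e-08 to 0.0075. The calls for NAGLU and GLB1 were lost with DESeq2 (adjusted p = 0.097 and 0.0605). For HEXA 73.9% and for MAN2B1 70.1% of reads were placed uniquely, and both kept their change on those reads alone (0.25 and 0.43).

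The 2 glycosidases that fell were GLA and NEU1. GLA, the α-galactosidase deficient in Fabry disease, measured 54.1, 54.2 and 54.8 CPM in controls and 42.3, 45.98 and 48.6 CPM with PERK siRNA (-0.26, SE 0.05, adjusted p = 1.3e-05). NEU1, the sialidase, measured 59.3, 60.0 and 60.7 CPM against 51.8, 52.6 and 55.4 CPM (-0.17, SE 0.04, adjusted p = 0.00035). GLA varied more among PERK siRNA samples than among controls, but no sample crossed between groups for either gene. The falls of GLA and NEU1 were both below 1.2-fold. NEU1 thus fell while CTSA and GLB1, the other parts of its complex, rose.

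The other luminal proteins rose or stayed level. GRN, progranulin, which is cut into granulins in the lysosome and is also secreted as a growth factor, went from 381, 387 and 391.5 CPM to 563, 569 and 579.7 CPM, a log2 difference of 0.56 (SE 0.02, adjusted p = 1.6e-18). LIPA, the acid lipase that frees cholesterol and fatty acids from lipoprotein and droplet lipids, rose from 97.55, 97.8 and 100.5 CPM to 122, 123 and 123.5 CPM (0.32, SE 0.03, adjusted p = 2.0e-10). TPP1, the tripeptidyl peptidase (0.17, adjusted p = 3.1e-06), and PSAP (0.15, adjusted p = 6.3e-07) rose by less, each with all PERK siRNA samples above all controls. ASAH1, the acid ceramidase, measured 54.6 to 57.8 CPM in controls and 56.0 to 60.85 CPM with PERK siRNA, with overlapping groups (0.05, SE 0.04, adjusted p = 0.28).

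Of the 3 MiT/TFE factors described here, TFE3 had the highest mRNA level. It stood at 157 ± 4.17 TPM in controls, against 14.9 ± 0.47 TPM for MITF and 2.45 ± 0.38 TPM for TFEB (SD, n = 3 each), and the 3 ranges did not overlap. TFE3 rose from 147, 151 and 154 CPM to 189.6, 189.9 and 193 CPM (0.34, SE 0.03, adjusted p = 4.7e-12). MITF rose from 27.3, 28.2 and 28.6 CPM to 30.3, 31.3 and 32.4 CPM (0.16, SE 0.05, adjusted p = 0.0076), which DESeq2 did not call (adjusted p = 0.10). TFEB measured 3.54, 3.76 and 4.76 CPM in controls and 3.99, 4.11 and 4.595 CPM with PERK siRNA on 66 to 92 reads, and did not pass (0.07, SE 0.15, adjusted p = 0.68). These factors are controlled by phosphorylation and location in the cell, which RNA counts do not measure.

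The receptors that carry hydrolases from the Golgi divided. SORT1, sortilin, which sorts prosaposin and acid sphingomyelinase without the mannose 6-phosphate tag, fell from 195, 204 and 217 CPM to 126, 129 and 133 CPM, a log2 difference of -0.67 (SE 0.03, adjusted p = 8.3e-15). Its lowest control sample was still above the highest PERK siRNA sample by a wide margin. Both mannose 6-phosphate receptors rose: M6PR, the cation-dependent one, from 197, 199 and 207 CPM to 267, 276 and 276 CPM (0.44, SE 0.03, adjusted p = 7.8e-15), and IGF2R, which also removes IGF-II, from 249.5, 253 and 253 CPM to 287, 294 and 299.7 CPM (0.22, SE 0.03, adjusted p = 8.9e-09). Unique placement held for 62.5% of the M6PR reads, and PHC1 overlaps 29.3% of its exon bases, but its change was the same on unique reads (0.44).

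Other lysosomal genes moved in both directions, and their counts are to be read against the 34.4% of all tested genes that rose and the 35% that fell. Of 19 other lysosomal membrane protein genes 10 rose and 4 fell (median 0.16). Rises of at least 2-fold were seen in 4 of the 19, CD164 among them, where 4.07% of all tested genes rose by that much. CD164, the sialomucin endolyn, rose from 181 ± 2.89 to 464 ± 5.70 CPM (SD, n = 3 each; 1.36, adjusted p = 4.5e-27), close to the size of the LAMP1 change, and PLD3, a lysosomal nuclease, rose (0.73). SPNS1, a lysophospholipid transporter (-0.39), and NPC1, the cholesterol exporter (-0.31), fell. Of 29 other hydrolases and cofactors 10 rose and 11 fell (median 0.01), shares near those of all genes, with the depalmitoylase PPT1 (0.55) and PLBD2 (0.54) higher. LGMN, legumain, the asparaginyl endopeptidase that processes cathepsins, fell from 45.8 ± 0.83 to 20.1 ± 1.14 CPM (SD, n = 3 each; -1.18, adjusted p = 4.8e-18).

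The proton pump and the signalling complexes held genes that rose and genes that fell, and the splits differ from those of all genes by a few genes, with no test. Of 17 V-ATPase genes, whose pump acidifies the lysosome, 5 rose and 8 fell (median -0.12). Subunits of the same cytosolic sector went opposite ways: ATP6V1A rose (0.57), while ATP6V1C1 (-0.81) and ATP6V1E1 (-0.83) fell, and ATP6V0E1 of the membrane sector rose (0.66). Of 22 genes of mTORC1, the Rag GTPases, Ragulator, folliculin and calcineurin, which govern where TFE factors reside, 8 rose and 12 fell (median -0.10). PPP3CB, a catalytic subunit of calcineurin, fell from 109.8 ± 1.70 to 48.5 ± 2.78 CPM (SD, n = 3 each; -1.18, adjusted p = 2.7e-21), and RPTOR fell (-0.39). LAMTOR3 (0.65) and RRAGD (0.56) rose.

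The sorting and fusion genes gave no split that was tested against all genes. Of 15 genes of mannose 6-phosphate tagging, adaptors and retromer 7 rose and 3 fell (median 0.11). AP1S1, a small subunit of the AP-1 adaptor that packs the receptors into vesicles, fell from 120.4 ± 2.35 to 42.3 ± 2.27 CPM (SD, n = 3 each; -1.51, adjusted p = 7.8e-24), and GNPTAB, the enzyme that starts the tag, fell (-0.32), while the retromer genes VPS35 (0.24) and SNX2 (0.26) rose. Of 19 tested genes of lysosome fusion and positioning 5 rose and 6 fell (median 0.01), shares no higher than those of all genes, with PLEKHM1 (0.23) among the higher. VPS33A (-0.65) and VTI1B (-0.18) were lower, with 53.3% and 72.0% of reads placed uniquely. Of 5 tested cystatin genes, which encode inhibitors of cysteine cathepsins, 4 fell and none rose. CST1 (-2.65) and CST4 (-3.16) were the lowest, with 89.9% and 87.8% of reads placed uniquely. CST4 was scarce, at 1.16 ± 0.28 and 0.13 ± 0.06 CPM (SD, n = 3 each) and no more than 3 reads in any PERK siRNA sample, so its fitted value is no bound on the fall.

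**Figure D5:**
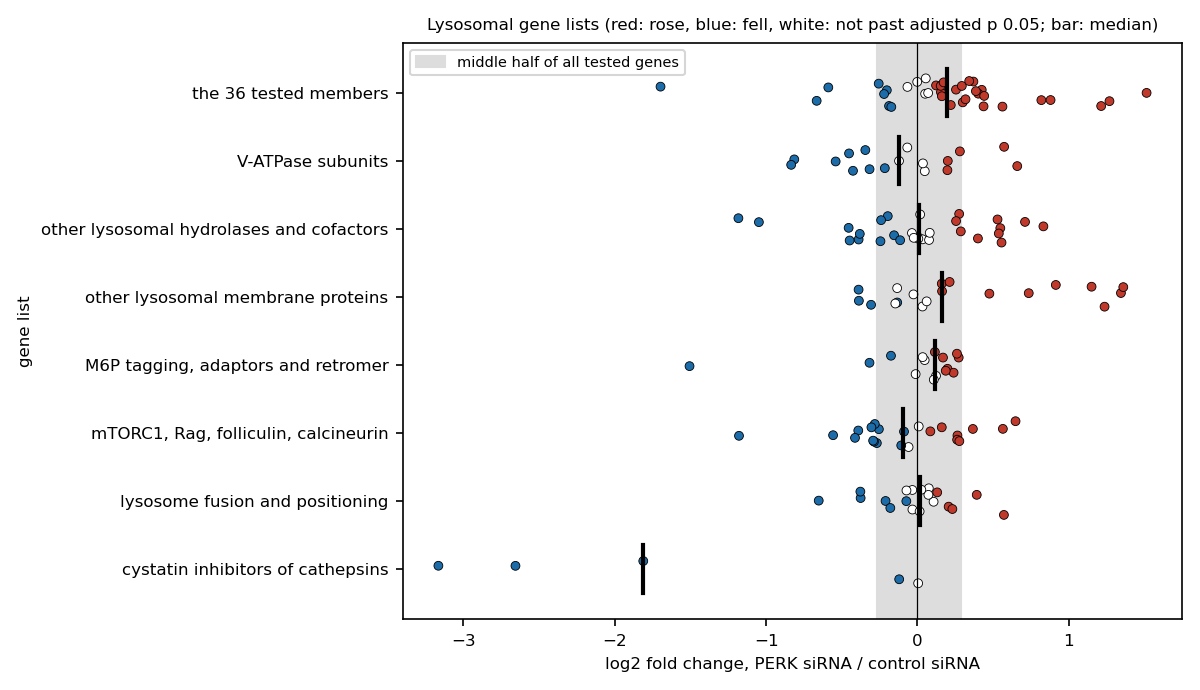
Log2 fold change (x axis) of each tested gene in the 37-gene list and in 7 further lysosomal lists, 1 point per gene; red points rose, blue points fell, white points did not pass, black bars are medians and the grey band is the middle 50% of all tested genes. The medians of the lists other than the cystatins lie between -0.12 and 0.20. The band shows the spread of single genes and is no measure of how far a median may vary.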

How the data were processed

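Values came from 6 deposited tables, 1 per sample, of 21533 genes each. Each table holds, per the file headers, counts of total exon reads and of unique exon reads. It also holds TPM deposited by the authors, which matched exon reads over exon length to a relative 7.1e-08 and served for levels, with no test. The submitters' processing notes name hg38, and libraries were directional, per the labels' protocols. Which aligner, counter and strand setting were used is not given in the sources used here.

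Total exon reads were fitted with edgeR 4.0.16 (R 4.3.3): TMM factors, default filter, quasi-likelihood test with robust dispersion, no covariate, over 12973 genes, with Benjamini-Hochberg adjustment over all of them at 0.05. The SE is the size of the log2 fold change over the root of the F statistic. The fit was also run on counts simulated with its own dispersions, which checks the code and says nothing about how the samples were made. Depth gave a floor of 3 reads, or 0.153 to 0.167 CPM, which covers counting error only. Replicates differed by more than counting noise (chi-square per degree of freedom 1.65 to 2.31). Groups and replicate numbers came from the sample titles.

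All 37 members, EIF2AK3 and, of each further list, the 2 rises and 2 falls with the smallest adjusted p were named, except 2 genes that are not reported here, and further genes only as markers. CD14 and CSF1R among the markers were named after their values were seen. Members and lists were chosen with earlier results of these data known. Gene places and exon overlaps, on either strand, came from GENCODE v29 (GRCh38), and promoter windows from RefSeq (GRCh38.p14). Protein sequences were not used here. Alternatives were other scaling, filters, tools (DESeq2 1.42.0, limma-voom 3.58.1), dispersion, the replicate number as a block, unique exon reads, stricter thresholds and leaving out each sample.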

Additional observations from a re-analysis of the deposited data

How the results depend on the processing

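Against a null of a 1.2-fold change, 14 members rose and 3 fell, where the main counts were 23 and 8, and over all genes 2345 rose and 2344 fell, against 4469 and 4545. Under every other alternative run the counts were within 1.5 times the main ones, including the 19 rises and 7 falls among the 30 tested members with at least 95% of reads placed uniquely, a limit chosen after seeing the data. Leaving out 1 sample gave 23 to 24 rises and 8 falls. The replicate number as a block also gave 23 rises and 8 falls. Same-numbered samples did not deviate together (correlations of -0.03 to 0.01 across genes), so the numbers were not taken as pairs. The EIF2AK3 fall held under every alternative. CD63 and TFEB, which did not pass, changed sign: CD63 was 0.014 with upper-quartile scaling and ranged from -0.026 to 0.021 without 1 sample, and TFEB from -0.012 to 0.21. CTSD passed with upper-quartile scaling (0.07, adjusted p = 0.017) and without control sample 1, control sample 2 or PERK siRNA sample 2 (adjusted p = 0.042 to 0.046). The cause of these shifts was not tested. The summed TPM of the sorting receptors was 1.14 times higher with PERK siRNA, and 1.08 times on unique reads. Of the 31 called members, 14 of 23 rises and 3 of 8 falls kept their call under every alternative in which they were tested. CTSO, CTSS and TFEB, with at most 154 reads, are the least precise, and CTSK could not be tested.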
